A study of Mus musculus with 7 samples.

Results

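The genes described here are Dlg1, Dlg2, Dlg3 and Dlg4, the PSD-95 family of membrane-associated guanylate kinases (MAGUKs). They encode, in that order, SAP97, PSD-93, SAP102 and PSD-95. They were chosen by symbol, with no measured value in the rule, and are 4 of the 22248 genes and 62 of the 102392 transcripts in the tables. Messenger RNA was sequenced from synaptoneurosomes, a synapse-rich fraction in which resealed nerve endings keep adhering postsynaptic material, prepared from the hippocampus of female wild-type C57Bl/6J mice. Sub-chronic AM6545 was represented by 4 libraries, labelled B, D, E and F, and vehicle by 3, labelled B, D and E. AM6545 blocks CB1, the receptor encoded by Cnr1, and acts mainly outside the brain because little of it crosses into brain tissue. The age, dose, duration and number of mice per library are not given in the sources used here. No source says whether libraries came from separate mice or pools, so p-values measure only the spread between these libraries.

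MAGUKs are scaffolds of the postsynaptic density of excitatory synapses. Their PDZ domains hold the tails of NMDA receptor subunits, AMPA receptor auxiliary subunits (TARPs), potassium channels and adhesion proteins. Their guanylate kinase (GK) domains bind SAPAP proteins, which link to Shank and Homer. PSD-95 is the abundant postsynaptic scaffold of mature synapses, PSD-93 is its close relative, SAP102 is prominent early in development, and SAP97 takes part in receptor traffic. The start of the protein bears on how it meets the membrane. Forms of PSD-95 and PSD-93 that begin with a pair of cysteines can be palmitoylated there. Some other forms begin with an L27 domain, which binds other scaffolds.

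In GENCODE M21 (GRCm38, the mm10 build), all 4 genes lie on the plus strand. Dlg1 (ENSMUSG00000022770.18 in the tables) is at chr16:31663443-31875129, Dlg2 (ENSMUSG00000052572.20) at chr7:90476672-92449247, Dlg3 (ENSMUSG00000000881.13) at chrX:100767722-100818410 and Dlg4 (ENSMUSG00000020886.18) at chr11:70016942-70047522. No exon of another gene in the table overlapped an exon of the 4 genes. Of the 31-base words in their transcripts, 1.05% of Dlg1, 1.05% of Dlg2, 0.0% of Dlg3 and 3.37% of Dlg4 also occur in other genes.

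The first 36 coding bases of the starts that matter for the counts are shown because they separate the cysteine-type starts from the others. They were read from the GENCODE M21 transcripts, and capitals mark cysteine codons.
Dlg4, start at 70018920: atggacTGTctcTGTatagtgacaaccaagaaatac
Dlg4, upstream start at 70017215: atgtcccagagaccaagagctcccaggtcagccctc
Dlg3, start at 100768072: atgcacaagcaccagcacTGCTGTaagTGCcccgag
Dlg2, start at 91091007: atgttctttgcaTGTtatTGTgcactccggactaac
Dlg2, upstream start at 90504898: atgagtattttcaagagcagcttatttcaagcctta
Dlg1, start at 31664852: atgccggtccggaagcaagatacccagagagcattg
Dlg1, internal start at 31754783: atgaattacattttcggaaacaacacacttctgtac
Counted from the ATG as codon 1, the cysteine codons are at 3 and 5 in Dlg4, at 7, 8 and 10 in Dlg3 and at 5 and 7 in Dlg2. None of the other 4 starts has a cysteine codon in this window. The term cysteine-type describes these letters only, for Dlg3 as well, and palmitoylation was not measured. The upstream start of Dlg4 and the start of Dlg1 at 31664852 open the L27 forms of PSD-95 and SAP97.

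The libraries held 19174649 to 25894733 counts. Mitochondrially encoded genes took 5.07% to 6.66% of counts with AM6545 and 6.11% to 9.83% with vehicle, highest in Vehicle B. The trend of expression with GC content, per 10 percentage points, was -0.12 to -0.03 log2 units in the AM6545 libraries and 0.05 to 0.14 in the vehicle libraries, again highest in Vehicle B. The trend per doubling of transcript length was 0.0089 to 0.068 log2 units with AM6545 and -0.097 to -0.0026 with vehicle, lowest in Vehicle B, so both trends separated the groups. The summed level of the 6 excitatory neuron markers was 4107 to 4504 CPM (counts scaled by library size) with AM6545 and 4556 to 5637 with vehicle, without overlap, although Ddn was the one gene of the 6 that did not overlap by itself and Neurod6 had a positive log2 fold change (0.15). The 6 presynaptic markers summed to 8547 to 9064 CPM with AM6545 and 8139 to 8216 with vehicle, also without overlap. Of these, Snap25 alone did not overlap by itself (0.21), Syp was at 0.01 and Bsn at -0.47. The summed levels of astrocyte, oligodendrocyte, microglia, inhibitory neuron, endothelial, choroid plexus and red blood cell markers overlapped between the groups. Single markers among them did not: 4 of 8 microglia markers, C1qa (-0.47), C1qb (-0.45), C1qc (-0.46) and Tmem119 (-0.22), 1 of 8 astrocyte markers, Slc1a2 (-0.45), and 1 of 6 inhibitory neuron markers, Sst (-0.41), were lower in every AM6545 library than in every vehicle library, each with an edgeR unadjusted p under 0.05 and none past an adjusted p of 0.05. Over the 14654 genes tested, 967 were higher and 1055 lower in every AM6545 library than in every vehicle library. At an edgeR unadjusted p under 0.05, 8.7% of genes were lower. The part of these library and marker measures in the results below was not tested, beyond the corrections given. In such bulk preparations fewer synaptic particles of a kind and less RNA per particle cannot be told apart.

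None of the 4 genes passed an adjusted p of 0.05 between AM6545 and vehicle in edgeR's quasi-likelihood test over 14654 genes, nor in DESeq2 or limma-voom. In edgeR, 1 of 14654 genes (0.00682%) passed. At an unadjusted p under 0.05, 1 of the 4 genes passed in edgeR: Dlg4, lower with AM6545, where 8.7% of all genes were lower by that rule and 5.86% higher. That unadjusted call held in 15 of 20 alternatives and ended in the other 5. In those edgeR fits the unadjusted value was 0.0506 with the correction for GC and length, 0.192 without Vehicle B, 0.0686 without Vehicle D, 0.0696 without AM6545 B and 0.0578 without AM6545 E. With scaling by total counts the split over all genes was 1104 higher and 943 lower, against 859 and 1275 with the TMM scaling used here. The AM6545 and vehicle libraries overlapped for all 4 genes, while 13.8% of all genes did not overlap.

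Dlg4, the PSD-95 gene, was measured at 45.6, 58.6, 50.5 and 66.6 CPM in AM6545 libraries B, D, E and F, and at 103.9, 82.4 and 52.0 CPM in Vehicle B, D and E. Vehicle B and D lay above all AM6545 libraries, and Vehicle E lay among them. The means were 55.3 ± 9.20 CPM (SD, n = 4) with AM6545 and 79.5 ± 26.1 (SD, n = 3) with vehicle. The log2 fold change, AM6545 over vehicle, was -0.52 (SE 0.21), with an edgeR unadjusted p of 0.0289 and an adjusted p of 0.30. By p, Dlg4 ranked 1408 of 14654 genes. Leaving out Vehicle E gave -0.75 with an edgeR adjusted p of 0.0239, in a fit that passed 944 of 14807 genes (6.38%). Leaving out Vehicle B gave -0.28 with an edgeR adjusted p of 0.869. Dlg4 has the highest GC content of the 4 genes, 57.0%, above 84.2% of the genes tested. Correcting each library for GC and length gave -0.52, with an edgeR adjusted p of 0.732.

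Dlg3, the SAP102 gene, stood at 144.8, 109.6, 112.5 and 119.7 CPM in AM6545 B, D, E and F, and at 76.7, 100.4 and 129.1 CPM in Vehicle B, D and E. The order of the vehicle libraries was the reverse of that for Dlg4: Vehicle B was lowest and Vehicle E highest. The means were 121.7 ± 16.0 CPM (SD, n = 4) and 102.1 ± 26.2 (SD, n = 3), a log2 fold change of 0.25 (SE 0.16) with an edgeR adjusted p of 0.472. Leaving out Vehicle E gave 0.46, with an edgeR adjusted p of 0.0623, and leaving out Vehicle B gave 0.09.

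Dlg2, the PSD-93 gene, stood at 52.4, 54.2, 59.2 and 56.7 CPM in AM6545 B, D, E and F, and at 66.5, 59.0 and 49.2 CPM in Vehicle B, D and E. All 4 AM6545 libraries lay between the lowest and the highest vehicle library. The means were 55.6 ± 2.95 CPM (SD, n = 4) and 58.2 ± 8.69 (SD, n = 3). The log2 fold change was -0.07 (SE 0.11), with an edgeR adjusted p of 0.801. It was 0.04 without Vehicle B and 0.02 with an offset for the average transcript length in each library.

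Dlg1, the SAP97 gene, stood at 40.7, 43.2, 48.9 and 43.6 CPM in AM6545 B, D, E and F, and at 35.7, 41.1 and 42.0 CPM in Vehicle B, D and E. Of the AM6545 libraries, 3 lay above all vehicle libraries. The means were 44.1 ± 3.42 CPM (SD, n = 4) and 39.6 ± 3.40 (SD, n = 3), a log2 fold change of 0.16 (SE 0.10) with an edgeR adjusted p of 0.495. Dlg1 has a GC content of 45.6%, above 24.6% of the genes tested, and correcting each library for GC and length gave a log2 fold change of 0.0042.

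**Figure D1:**
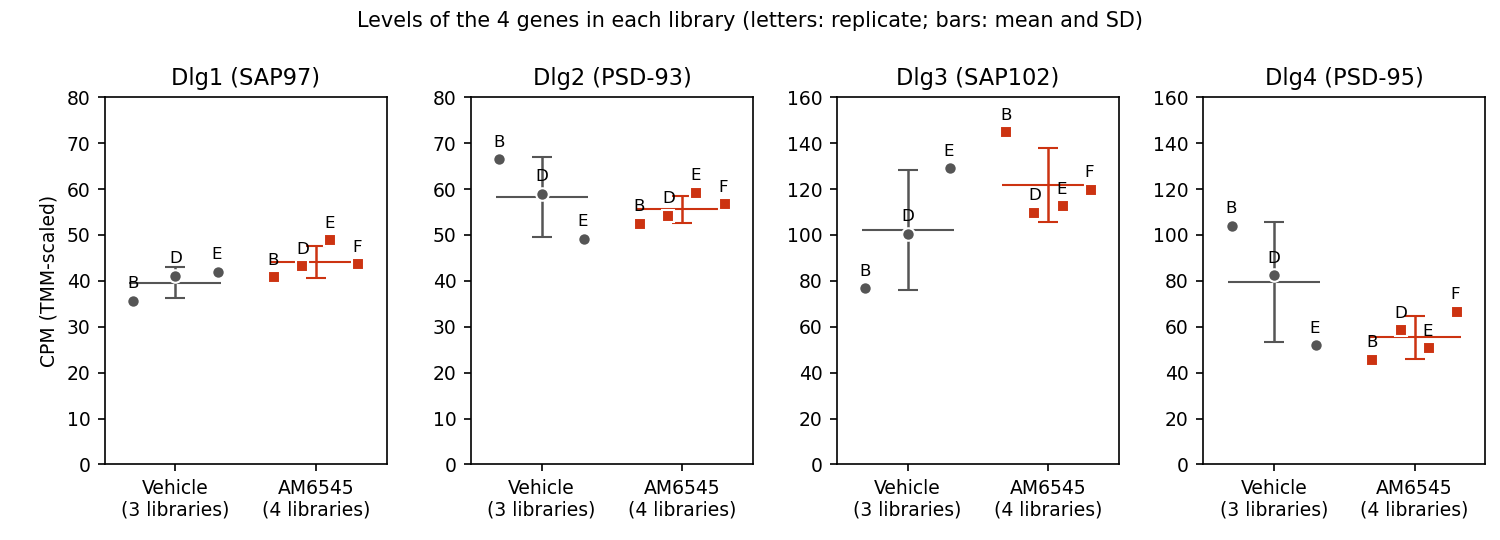
Levels of Dlg1, Dlg2, Dlg3 and Dlg4 in CPM (vertical axes from 0, with a wider range for Dlg3 and Dlg4) in the 3 vehicle libraries (circles) and the 4 AM6545 libraries (squares). Letters give the replicate, horizontal lines the group mean and bars the SD. Vehicle B, D and E are ordered from high to low for Dlg4 and from low to high for Dlg3, and the groups overlap for every gene.

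The plot of fold changes by setting shows how far each gene moved with the processing. With all 7 libraries, scaling, filter and tool left Dlg4 between -0.58 and -0.47. For Dlg2, Dlg3 and Dlg4, the lowest and the highest of the 20 alternatives were the fits without Vehicle B and without Vehicle E.

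**Figure D2:**
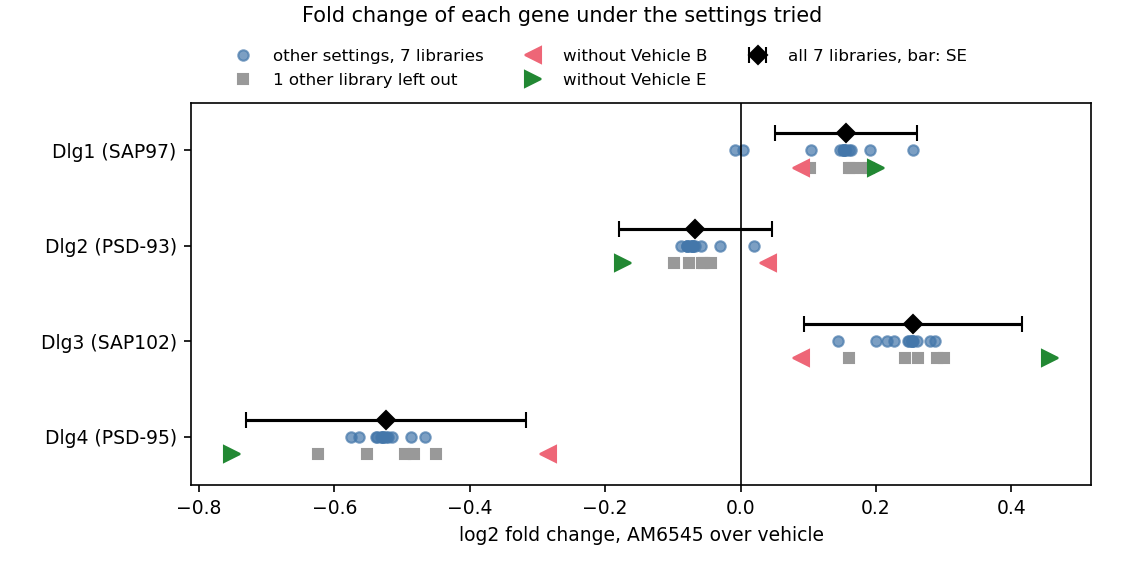
Log2 fold change, AM6545 over vehicle (horizontal axis), of each gene: diamonds are the edgeR fit on all 7 libraries with its SE, circles are other settings with all 7 libraries, and squares and triangles are fits with 1 library left out. Dlg4 lies below 0 in every fit and ranges from -0.75 without Vehicle E to -0.28 without Vehicle B, while Dlg3 ranges from 0.09 to 0.46.

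Levels of different genes were compared per length, in TPM (counts divided by transcript length and scaled to a common total). Dlg3 took the largest share of the family in 6 of 7 libraries, and Dlg4 exceeded it in Vehicle B. Over the 7 libraries Dlg3 made up 40.3% ± 6.48 (SD) of the family's TPM, Dlg4 28.7% ± 7.66, Dlg1 18.0% ± 2.70 and Dlg2 13.0% ± 1.06. The neighbours Dlg3 and Dlg4 were therefore not separated beyond their spread over libraries. Dlg4 lay above Dlg1 in all 7 libraries, with a log2 ratio of 0.17 to 1.64, and Dlg1 lay above Dlg2 in 6 of 7, with a log2 ratio of -0.011 to 0.81.

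The family total varied less than its parts. Its sum was 119.1, 114.4, 118.5 and 130.8 TPM in AM6545 B, D, E and F, and 110.9, 126.4 and 109.5 TPM in Vehicle B, D and E. The means were 120.7 ± 7.06 TPM (SD, n = 4) with AM6545 and 115.6 ± 9.40 (SD, n = 3) with vehicle, and the groups overlapped. Within this total Dlg4 took 20.5%, 27.4%, 23.6% and 27.1% in the AM6545 libraries and 42.7%, 35.2% and 24.4% in Vehicle B, D and E. Dlg3 took 49.4%, 40.7%, 40.7% and 39.4% in the AM6545 libraries and 29.8%, 35.8% and 46.5% in Vehicle B, D and E. The log2 ratio of Dlg4 to Dlg3 was -1.26, -0.57, -0.78 and -0.54 in AM6545 B, D, E and F, and 0.52, -0.02 and -0.93 in Vehicle B, D and E. It was thus below 0 in every library but Vehicle B, and Vehicle E lay among the AM6545 libraries.

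**Figure D3:**
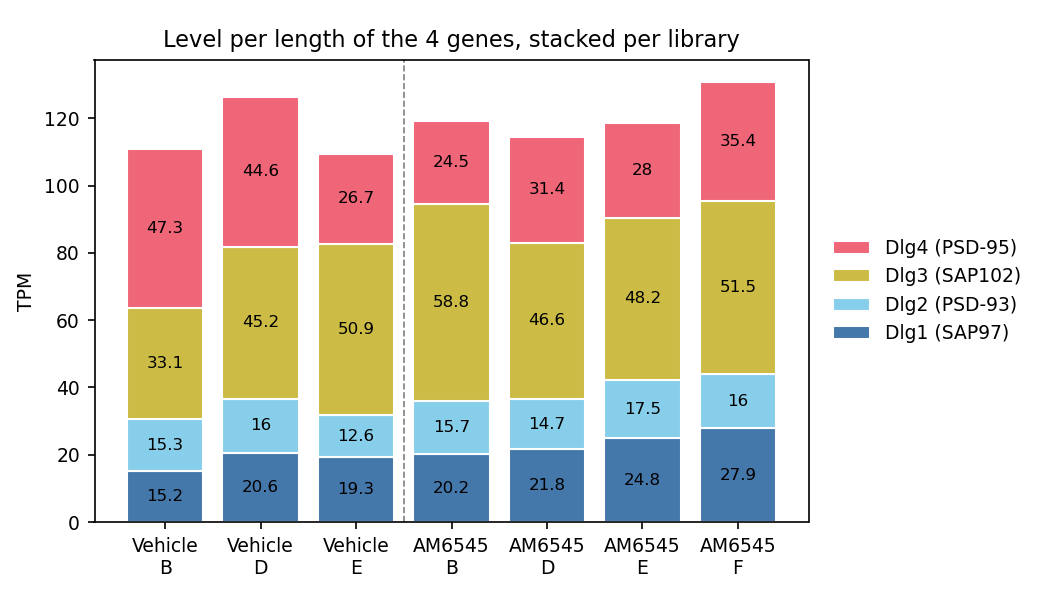
Level per length in TPM (vertical axis) of the 4 genes stacked for each library, vehicle to the left of the dashed line and AM6545 to the right. The stack heights run from 109.5 to 130.8 TPM and overlap between the groups, while Dlg4 takes 47.3 TPM in Vehicle B and 24.5 in AM6545 B.

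Over the 7 libraries the log2 CPM of Dlg3 and Dlg4 had a Pearson r of -0.91, that of Dlg2 and Dlg4 0.79, and that of Dlg2 and Dlg3 -0.88. These are descriptions over 7 libraries that share the same scaling, and Vehicle B lies at an end of each. Among 9424 genes with a mean of at least 10 CPM, those most like Dlg4 in log2 CPM over the 7 libraries included Maf1 (r = 0.99) and Msl1 (0.99). Those most like Dlg3 were Mfn2, Copg2 and Vps8 (r = 0.996, 0.996 and 0.995). For Dlg2 they were Smim7 (0.99), Pigf (0.99) and Gsk3a (0.99), and for Dlg1 Shroom2 (0.99), Cep68 (0.99) and Plpp6 (0.98).

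Of the 62 transcripts, 45 had counts in some library, 17 were at 0 in all 7, and 20 passed the filter on low counts. None of the 20 passed an adjusted p of 0.05 in edgeR or in DESeq2. Over all transcripts edgeR called 6 of 33962 (0.0177%) and DESeq2 called 431. At an unadjusted p under 0.05, edgeR gave 1 higher and 1 lower transcript, both of Dlg3, where 8.39% of all transcripts passed. DESeq2 gave 1 higher and 2 lower, and the share of all transcripts at that threshold in DESeq2 was not counted. The share of transcripts within the gene had an edgeR adjusted p of 0.999988 for each of the 4 genes, with 0 called and none at an unadjusted p under 0.05. Limma gave 0 called and 1 unadjusted, and the share of all genes at that threshold in limma was not counted. That edgeR test called 62 of 8691 genes (0.713%), and on simulated data it missed most changed genes and most of its calls were false, so shares are given below as descriptions.

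Dlg4 was read almost entirely from the cysteine-type start. Transcripts with the start at 70018920 took 99.2% ± 0.278 (SD, n = 7) of the Dlg4 counts. Dlg4-203, with 20 exons and 3488 bases, took 83.6%, 83.8%, 83.9% and 81.2% in AM6545 B, D, E and F, and 83.8%, 87.2% and 85.5% in Vehicle B, D and E. Its counts were 882, 1285, 901 and 1409 with AM6545 and 2163, 1783 and 822 with vehicle, so it carried the pattern of the whole gene. Its log2 fold change was -0.56 (SE 0.24), with an edgeR adjusted p of 0.597. The 2 protein-coding L27 transcripts, Dlg4-204 and Dlg4-217, had 0 counts in every library. Of 10985 Dlg4 counts, 0 allows a share of up to 0.0273%, by 3 counts and for counting error only. Dlg4-205, which is annotated as a target of nonsense-mediated decay, also has the upstream start and lacks a 110-base exon; it was named after its values were seen. It took 58.8 counts in all, 0.0 to 19.9 per library, which is 0.535% of the Dlg4 counts.

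The other 2 named Dlg4 transcripts share the cysteine-type start. Dlg4-215 took 9.97% of the Dlg4 counts over the 7 libraries and differs inside the coding region by 9 bases at an alternative acceptor. That exon, chr11:70030595-70030654, is shown as it stands in Dlg4-203, with capitals for the bases absent from Dlg4-215.
Dlg4, exon of 60 bases: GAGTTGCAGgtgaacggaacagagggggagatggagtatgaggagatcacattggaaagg
The 9 bases are 3 codons, so the frame is kept. Dlg4-214, which ends early in a last exon of 5652 bases, took 5.5%, 5.4%, 6.1% and 5.9% with AM6545 and 4.2%, 3.8% and 4.7% with vehicle. Its share was higher in every AM6545 library than in every vehicle library, but its level had a log2 fold change of -0.08 (SE 0.27) with an edgeR adjusted p of 0.953. Dlg4-214 is 1 of 15 named transcripts, and how often shares over all transcripts do not overlap was not counted. Dlg4-214 has a GC content of 46.8% and 6326 bases, against 57.9% and 3488 bases for Dlg4-203. The trends of expression with GC content and length separated the groups, and their part in this share was not tested.

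The split of Dlg3 between coding and noncoding transcripts differed widely between libraries. Transcripts with the cysteine-type start took 91.1%, 83.6%, 87.7% and 82.1% of its counts in AM6545 B, D, E and F, and 38.7%, 69.2% and 85.9% in Vehicle B, D and E. Transcripts not annotated as protein coding took 7.70%, 15.3%, 12.3% and 15.2% with AM6545 and 60.6%, 30.8% and 13.6% with vehicle. Vehicle B and D stood apart in both, and Vehicle E lay among the AM6545 libraries. In CPM, the protein-coding transcripts of Dlg3 summed to 133.9, 93.3, 99.4 and 101.3 with AM6545, and to 30.3, 70.0 and 110.3 in Vehicle B, D and E.

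Most of the noncoding part was Dlg3-208, at 222, 361, 263 and 435 counts in AM6545 B, D, E and F, and 1087, 709 and 284 in Vehicle B, D and E. Its log2 fold change was -1.16 (SE 0.36), with an edgeR unadjusted p of 0.0145 and an adjusted p of 0.559. Without Vehicle B it was -0.74, with an edgeR unadjusted p of 0.0567. Dlg3-201, a coding transcript, had 956, 601, 631 and 1207 counts with AM6545 and 361, 486 and 466 with vehicle. Scaled, these were 41.4, 23.0, 29.9 and 46.2 CPM with AM6545 and 14.6, 19.7 and 24.9 with vehicle, so AM6545 D lay below Vehicle E and the groups overlapped. Its log2 fold change was 0.83 (SE 0.29), with an edgeR unadjusted p of 0.0243 and an adjusted p of 0.559. Dlg3-208 begins at 100777285, has 12 exons and 3316 bases, and 66.0% of it is the last exon, which it shares with coding transcripts. Of its bases, 188 lie in no exon of Dlg3-201, Dlg3-202 or Dlg3-204. These coding transcripts hold 1809 bases upstream of its first base, which Dlg3-208 lacks. How well the estimate separates them was not tested. Vehicle B, with the largest share for Dlg3-208, also had the lowest trend of expression with transcript length, -0.10 log2 units per doubling, against -0.02 to 0.07 in the other 6 libraries; the part of this in the result was not tested.

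A pair of cassette exons of Dlg3 keep the frame, as 18 and 14 codons, and are shown because they separate the coding transcripts.
Dlg3, exon of 54 bases, chrX:100771307-100771360: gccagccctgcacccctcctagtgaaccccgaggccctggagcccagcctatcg
Dlg3, exon of 42 bases, chrX:100811502-100811543: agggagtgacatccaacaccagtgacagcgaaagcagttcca
The 54-base exon is in Dlg3-202 and Dlg3-204 and absent from Dlg3-201. Of the estimated counts of named transcripts that span the 54-base exon, 66.6% ± 9.57 (SD, n = 4) held it with AM6545. With vehicle it was 66.7% ± 13.8 (SD, n = 3). The 42-base exon is in Dlg3-202 and in Dlg3-208, which is not annotated as protein coding. By the same measure it was in 50.3% ± 3.40 with AM6545 and 62.8% ± 15.1 with vehicle, where Vehicle B alone stood at 80.2%. In Vehicle B, Dlg3-208 had 1087 counts and Dlg3-202 had 377, so that percentage does not describe the coding transcripts alone. Dlg3-204 was listed at 0 in Vehicle B and between 140.4 and 804.5 counts in the other 6 libraries.

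Dlg2 came mainly from its cysteine-type start, which took 86.2% ± 4.20 (SD, n = 7) of its counts, nearly all as Dlg2-204. The longer Dlg2-217, with the upstream start at 90504898 and 28 exons, took 6.85%, 18.1%, 6.33% and 8.85% in AM6545 B, D, E and F, and 11.1%, 6.90% and 10.3% in Vehicle B, D and E. AM6545 D stood apart. The log2 fold changes were -0.12 (SE 0.15) for Dlg2-204 and -0.02 (SE 0.41) for Dlg2-217, with edgeR adjusted p-values of 0.866 and 0.993.

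Dlg1 was the most evenly divided. Protein-coding transcripts of its L27 start took 66.2% ± 9.23 (SD, n = 7) of its counts, Dlg1-204 with the internal start 15.9% ± 3.20, and transcripts not annotated as protein coding, mainly Dlg1-209, a decay target, 17.9% ± 8.76. Dlg1-204 was at 17.7%, 16.1%, 18.0% and 18.0% in AM6545 B, D, E and F, and at 8.90%, 16.4% and 15.8% in Vehicle B, D and E. Its log2 fold change was 0.48 (SE 0.28), with an edgeR adjusted p of 0.688. Its transcripts of the L27 start differ in a 99-base exon, in a choice between a 34-base and a 100-base exon and in their ends. Counts moved between them from library to library: Dlg1-203 was listed at 0 in AM6545 E and at 274.6 to 475.2 counts elsewhere, while Dlg1-201 was listed at 0 in 4 libraries and at 223.8 counts in AM6545 E. No fold is given for these.

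**Figure D4:**
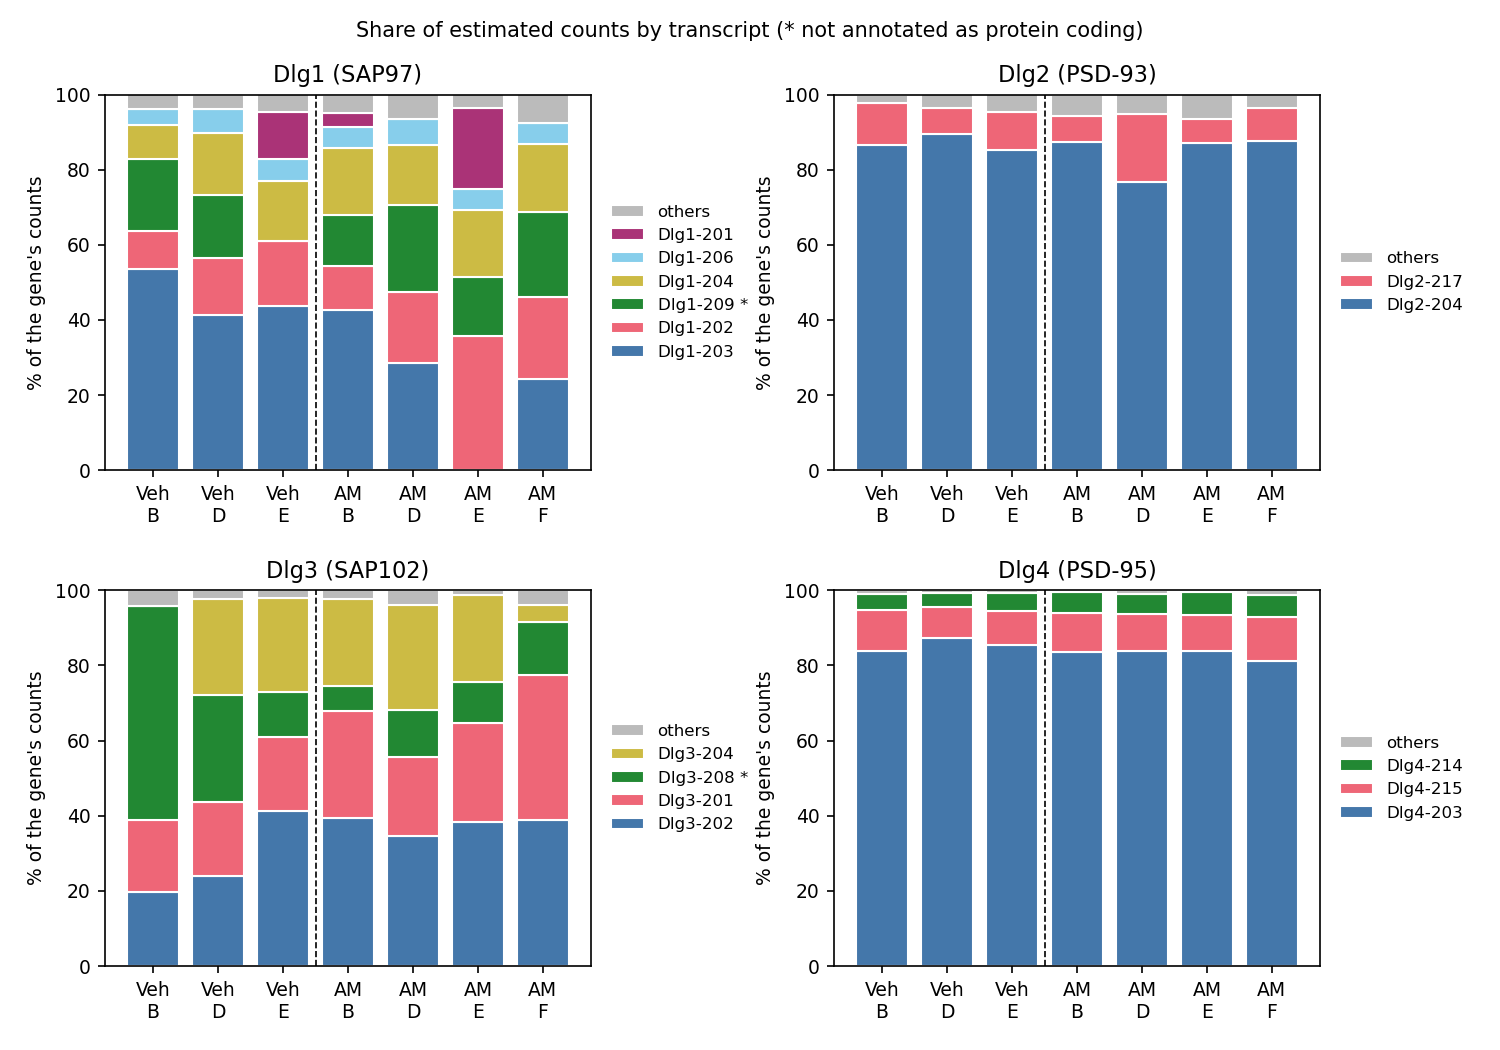
Percent of each gene's estimated counts (vertical axes) taken by its named transcripts in each library, vehicle (Veh) to the left of the dashed line and AM6545 (AM) to the right. Stars mark transcripts not annotated as protein coding and grey the remaining transcripts. Dlg4-203 takes 81.2% to 87.2% throughout, whereas Dlg3-208 takes 57.1% in Vehicle B and 6.63% to 28.4% elsewhere.

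The windows from 250 bases before to 50 bases after 3 RefSeq starts are shown because the counts separate the transcripts near them. The first is set on 70018605, while the cysteine-type Dlg4-203 starts at 70018444 in GENCODE M21. The upstream Dlg4 window is set on 70017203, while Dlg4-204 and Dlg4-217, with 0 counts, start at 70016942. That window thus begins downstream of their start and takes in their coding start at 70017215. The Dlg3 window is set on 100777271, beside the start of Dlg3-208 at 100777285. The windows are RefSeq sequences on GRCm38.p6, plus strand, with GC boxes in capitals.
Dlg4, chr11:70018355-70018654: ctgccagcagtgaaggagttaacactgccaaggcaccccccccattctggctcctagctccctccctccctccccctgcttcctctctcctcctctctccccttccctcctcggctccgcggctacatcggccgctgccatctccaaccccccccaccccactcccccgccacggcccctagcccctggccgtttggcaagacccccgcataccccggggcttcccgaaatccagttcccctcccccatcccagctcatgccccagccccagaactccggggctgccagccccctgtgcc
Dlg4 upstream, chr11:70016953-70017252: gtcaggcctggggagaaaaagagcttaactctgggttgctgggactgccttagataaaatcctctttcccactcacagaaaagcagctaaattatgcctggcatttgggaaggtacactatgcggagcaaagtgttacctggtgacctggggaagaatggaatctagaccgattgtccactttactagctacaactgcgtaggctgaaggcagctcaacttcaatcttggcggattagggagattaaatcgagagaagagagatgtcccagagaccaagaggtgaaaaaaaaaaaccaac
Dlg3, chrX:100777021-100777320: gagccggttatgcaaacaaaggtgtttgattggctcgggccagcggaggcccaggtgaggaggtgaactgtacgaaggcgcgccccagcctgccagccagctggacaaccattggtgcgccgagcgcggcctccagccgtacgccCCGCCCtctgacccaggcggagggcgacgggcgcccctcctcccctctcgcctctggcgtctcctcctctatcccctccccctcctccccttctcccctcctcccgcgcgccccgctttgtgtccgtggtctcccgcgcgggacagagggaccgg
The GC content is 69.0%, 46.3% and 70.3%, and the windows hold 12, 5 and 28 CpG sites, in that order. On either strand, the GC box GGGCGG was found once, in the Dlg3 window, and in 35.7% of 32851 promoter windows. The CRE letters TGACGTCA (1.8% of windows) and the TATA box TATAAA (13.6%) were in none of the 3. CCAAT (37.4%) and CAGCTG (16.3%) were in the Dlg3 window alone. A match is a description of letters only.

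Partners and regulators were read from 11 lists, chosen with earlier results of these data known, so the shares below are descriptions. The lists hold 101 genes, of which 100 were tested. In edgeR 0 passed an adjusted p of 0.05, 6 were higher and 18 lower at an unadjusted p under 0.05, and the median log2 fold change was -0.03 against 0.01 over all genes. Unadjusted, that is 18% lower and 6% higher, beside 8.7% and 5.86% of all genes. DESeq2 passed 7 of them, where it passed 2.44% of all genes given an adjusted p: Cacng2, Dlgap3, Shank1, Shank3 and Lrrc4b lower, and Lin7c and Fmr1 higher. Limma-voom, which passed 2.69% of all genes, passed the same ones except Lrrc4b. Without Vehicle E edgeR passed 18, 13 lower and 5 higher, and 6.38% of all genes. Without Vehicle B it passed 0, with 6 lower and 3 higher at an unadjusted p under 0.05, beside 3.69% and 2.77% of all genes. With the correction for GC and length 10 were lower and 3 higher unadjusted, beside 4.49% and 2.25% of all genes, and none was left in the NMDA, signalling, palmitoylation and turnover, L27 and RNA-binding lists.

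Shank and Homer form the scaffold layer below the GK domain. Shank1, a scaffold that joins SAPAP to Homer, was at 98.4, 122.0, 111.5 and 119.4 CPM in AM6545 B, D, E and F, and at 250.7, 175.8 and 148.8 in Vehicle B, D and E. No AM6545 library reached a vehicle library, and the vehicle order was that of Dlg4. Its log2 fold change was -0.77 (SE 0.16), with an edgeR adjusted p of 0.199. Shank3, its relative, was at 15.9 ± 2.07 CPM with AM6545 and 28.0 ± 10.9 with vehicle, a log2 fold change of -0.82 (SE 0.22). In the Shank and Homer list 4 of 6 genes were lower and 0 higher at an unadjusted p under 0.05, with a median of -0.28. Of the 4 SAPAP genes, Dlgap3 was at 70.7 ± 4.95 against 107.2 ± 33.8 CPM (log2 fold change -0.60, SE 0.17), while Dlgap1 was at 429.2 ± 11.3 against 387.0 ± 22.2 (0.15, SE 0.09). The SAPAP median was -0.01, with 1 lower and 0 higher.

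The PDZ domains bind receptor partners. All 6 NMDA receptor subunits tested had negative log2 fold changes, with a median of -0.21, 2 lower and 0 higher at an unadjusted p under 0.05. Grin2b, whose tail binds PSD-95 and SAP102, was at 157.3, 178.3, 161.0 and 202.9 CPM in AM6545 B, D, E and F, and at 267.6, 217.3 and 182.8 in Vehicle B, D and E, and the groups overlapped. Its log2 fold change was -0.35 (SE 0.13), and Grin2c's was -0.28 (SE 0.13). When libraries were corrected for GC and length the NMDA median was -0.05, without Vehicle B it was -0.10, and in both fits none of the 6 passed an unadjusted p of 0.05. Among 6 TARP genes, 1 was lower and 0 higher: Cacng2, which encodes stargazin, at 26.7 ± 1.69 against 39.2 ± 10.6 CPM (-0.56, SE 0.15). Cacng7 had a log2 fold change of -0.63 (SE 0.29) at 0.702 and 1.08 CPM.

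Of 14 adhesion partners 3 were lower and 0 higher, with a median of -0.06. Lrrc4b, a netrin-G ligand relative with a PDZ-binding tail, was at 40.0 ± 4.40 against 68.4 ± 28.3 CPM (-0.78, SE 0.22). Nlgn2, the neuroligin of inhibitory synapses, had -0.84 (SE 0.30), with 71.9 CPM in Vehicle B and 23.6 to 39.6 CPM in the other 6 libraries. Among 8 potassium channel partners 1 was lower, Kcnj10 (-0.65, SE 0.22), a channel of astrocytes, and 1 higher, Kcna3 (0.38, SE 0.16). Of 12 signalling partners 2 were lower and 0 higher, Begain (-0.29, SE 0.09) and Iqsec2 (-0.43, SE 0.16).

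The genes that act on the family had both signs. Of 12 genes of palmitoylation and turnover, 2 were lower and 1 higher. They included Zdhhc8, a palmitoylating enzyme, at 24.4 ± 2.77 against 32.3 ± 7.37 CPM (-0.41, SE 0.15), and Abhd17a, which removes palmitate from PSD-95, at 343.8 ± 20.5 against 430.0 ± 78.2 CPM (-0.32, SE 0.12). The 15 other MAGUK genes had a median of 0.14, with 1 higher and 0 lower: Tjp1 (0.28, SE 0.12), a tight junction scaffold. Mpp3 had 0.34 (SE 0.19). Among 4 L27 partners, Lin7c was at 95.3, 105.2, 105.7 and 98.2 CPM in AM6545 B, D, E and F, and at 70.2, 81.4 and 81.1 in Vehicle B, D and E, without overlap (0.38, SE 0.10, edgeR adjusted p of 0.199), while its relative Lin7b was at -0.37 (SE 0.13).

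The RNA-binding list holds 13 genes chosen as regulators of Dlg4 mRNA or its exons, not all of them RNA-binding proteins. Of these genes, 2 were higher and 1 lower at an edgeR unadjusted p under 0.05, and 0 with the correction for GC and length. Their action on Dlg4 was not tested. Fmr1, whose protein FMRP binds Dlg4 mRNA, was at 51.6, 53.1, 50.8 and 44.6 CPM in AM6545 B, D, E and F, and at 27.5, 37.4 and 42.3 in Vehicle B, D and E, without overlap. Its log2 fold change was 0.49 (SE 0.14), with an edgeR adjusted p of 0.212. Ptbp2, a splicing repressor of Dlg4 exons in young neurons, was at 79.7 ± 9.14 against 61.9 ± 7.35 CPM (0.37, SE 0.12).

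**Figure D5:**
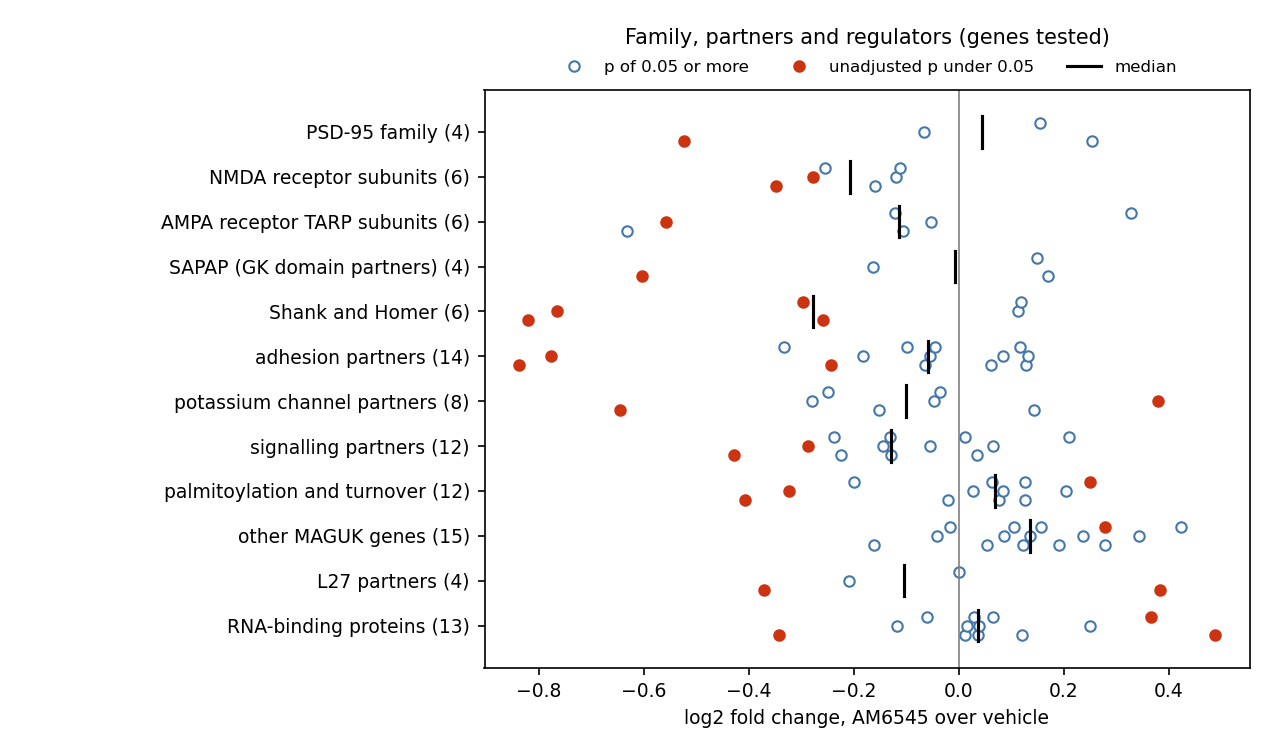
Log2 fold change, AM6545 over vehicle (horizontal axis), of each gene tested in the family and in the 11 lists, with the number of genes in brackets. Filled points have an unadjusted edgeR p under 0.05, open points do not, and bars are list medians, which run from -0.28 for Shank and Homer to 0.14 for other MAGUK genes.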

How the data were processed

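The authors deposited estimated counts per gene and per transcript, not scaled to a common total, for 7 libraries. RNA extraction used an RNeasy kit and library preparation the SMARTer Ultra Low Input kit, per the labels' protocols. Salmon 1.5.2 and the mm10 build are named in the submitters' processing notes, and strand use is not given in the sources used here. Names, coordinates, lengths and GC content come from GENCODE M21, which holds 22148 of 22248 gene identifiers. The deposited identifiers often carry a higher version, so models may differ from those used for counting.

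Estimated counts were rounded and compared by edgeR 4.0.16 in R 4.3.3 (with limma 3.58.1 beside it) after TMM scaling, with filterByExpr, a robust quasi-likelihood fit and no covariates, with Benjamini-Hochberg adjustment over all genes or transcripts. SEs are the absolute log2 fold change over the square root of F. CPM are TMM-scaled, and TPM use annotated lengths. Usage was tested with diffSpliceDGE and Simes p-values. Alternatives were other scalings, DESeq2 1.42.0, limma-voom, filters, corrections for GC content and length, a replicate block and leaving out each library. No pair of libraries was identical. The code was tested on simulated data.

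The members and lists were chosen with earlier results of these data known. Transcripts were named from a mean share of 5% of their gene's counts, at most 6 per gene, and list genes by the 2 smallest unadjusted p-values in each list. Of the genes most like each member, 1 is not reported here.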

Additional observations from a re-analysis of the deposited data

Results flagged for a closer look

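Of 41 values compared across the 4 AM6545 libraries, 3 had 1 library far from the other 3, where chance gives about 2.05. Dlg2-204 took 76.7% of the Dlg2 counts in AM6545 D and 87.1% to 87.7% in the other AM6545 libraries, with 85.1% to 89.6% in vehicle. Dlg3 took 49.4% of the family's TPM in AM6545 B and 39.4% to 40.7% in the others, with 29.8% to 46.5% in vehicle. Dlg4-203 took 81.2% of the Dlg4 counts in AM6545 F and 83.6% to 83.9% in the others, with 83.8% to 87.2% in vehicle.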

How the results depend on the processing

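With 3 vehicle libraries, 1 library can decide a call. In 20 alternatives Dlg4 kept a negative log2 fold change (-0.75 to -0.28) and passed once, without Vehicle E (-0.75, edgeR adjusted p 0.0239, over a range of 0.0239 to 1). Dlg3 stayed positive (0.09 to 0.46). Dlg1 reversed to -0.0075 with the replicate block and the GC and length correction, and Dlg2 to 0.0198 with the average length offset and 0.0411 without Vehicle B (-0.17 to 0.0411 over single libraries left out). With the replicate block Dlg4 was at -0.58 (edgeR adjusted p 0.595) and transcripts called were 0. The libraries share only a letter: same-letter deviations had an r of -0.26, -0.13 and -0.18. Leaving out 1 library at a time gave 0 (without Vehicle B or AM6545 E) to 944 (without Vehicle E) genes called, 1 to 14 transcripts and 69 to 163 genes for usage (97 without AM6545 F, 101 without Vehicle D, 163 without Vehicle E). Genes called were 247 with DESeq2, 394 with limma-voom, 0 with the GC and length correction (986 unadjusted), 0 with the average length offset (2118 unadjusted) and 2 with a mean of at least 50 counts. Transcripts called were 431 with DESeq2 and 10 with the count minimum, which left 21 genes for usage. On CPM, Dlg1 was 15.2% and Dlg2 20.4% of the family. Reversed transcripts were Dlg2-217 (0.0206 with total counts) and, over single libraries left out, Dlg2-204 (-0.27 to 0.0105), Dlg2-217 (-0.42 to 0.30), Dlg3-204 (-0.26 to 0.89), Dlg4-214 (-0.27 to 0.16) and Dlg4-215 (-0.67 to 0.0104), each highest without Vehicle B except Dlg3-204, lowest without it. The cause was not tested.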
